A study of Mus musculus with 6 samples.

Results

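The 8 genes Snrpn, Ndn, Magel2, Peg12, Ube3a, Peg3, Usp29 and Zim1 lie in 2 imprinted domains of mouse chromosome 7, the Prader-Willi domain (the first 5) and the Peg3 domain (the last 3). Their transcripts were followed in undifferentiated mouse embryonic stem (ES) cells that kept or lacked Dicer, an enzyme that cuts microRNA precursors into mature microRNAs. Every probe set, a group of short array probes for one transcript, was taken whose platform annotation names exactly 1 gene that is one of these 8. That gave 8 of the 18193 genes named singly there, with 25 probe sets of the 45101 on the array, 17 for the Prader-Willi domain and 8 for the Peg3 domain. There were 3 arrays of the Dicer +/- line (D4, called heterozygous here), which carries 1 disrupted copy of Dicer, and 3 of the Dicer -/- line (27H in the sample titles, 27H10 in the series title, called null here). No other allele, agent or time point is named in the labels, and both lines were analysed on the same day according to them. Since each genotype is a single line, an effect of Dicer and a difference between lines cannot be told apart. Whether the arrays stand for independent cultures is not stated, and the p-values therefore rest on a spread between samples that may be technical.

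Imprinted genes are expressed from the copy inherited from one parent, and the copy that is read is set by DNA methylation laid down in the germ line at an imprinting control region. In the Prader-Willi domain, Snrpn, Ndn, Magel2, Peg12 and the long RNA Snhg14 are read from the paternal copy. Loss of the paternal genes of the matching human region, which does not hold Peg12, causes Prader-Willi syndrome. Ube3a, whose loss causes Angelman syndrome, is read from the maternal copy in neurons, where Snhg14 runs antisense to it, and from both copies in most other cells. In the Peg3 domain, Peg3 and Usp29 are paternally expressed and Zim1 is maternally expressed.

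RefSeq start-site windows of assembly GRCm38.p6, reaching from 250 bases before to 50 bases after a transcription start, were found for all 8 genes, 11 windows in all because Snrpn has 4 starts. The sequence CGCATGCG, which is its own reverse complement and matches the centre of the recognition sequence of the transcription factor NRF1, was in 5 of these 11 windows and in 1.87% of 32851 windows genome-wide. It was in all 4 Snrpn windows and in that of Ndn, so the 5 matches come from 2 of the 8 genes. It was searched for after the sequences had been looked at. The matches are printed with 6 bases on each side, with the motif in capitals, to show what the 2 genes share. The Snrpn stretches, on the minus strand, are at chr7:60005150-60005169, where the motif begins at transcribed base 37, at chr7:60048036-60048055, at chr7:60140290-60140309 and at chr7:60450227-60450246. The Ndn stretch, on the plus strand, is at chr7:62348248-62348267.
Snrpn start nearest the gene body: ctgggaCGCATGCGtaggga
Snrpn next start upstream: catgcaCGCATGCGtcgttg
Snrpn start farther upstream: catccaCGCATGCGtgatgg
Snrpn most distant start: catccaCGCATGCGtgattg
Ndn: ccaacaCGCATGCGcaatat

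The windows of Ndn and Magel2, which are neighbours on the chromosome, held 11 and 10 CpG sites, against a median of 7 genome-wide. Their last 150 bases before the start are printed with each CG in capitals. The reason is that the log2 differences of these neighbours had opposite signs, although that of Ndn was small. The Ndn stretch is chr7:62348127-62348276 and the Magel2 stretch is chr7:62376829-62376978, both on the plus strand. The windows of Peg3 and Usp29 overlap by 263 bases, since the genes start 163 bases apart and are read away from each other. That stretch, chr7:6730420-6730582, is printed on the Peg3 strand, again with each CG in capitals, because 1 of these genes was readily measured and the other was not.
Ndn: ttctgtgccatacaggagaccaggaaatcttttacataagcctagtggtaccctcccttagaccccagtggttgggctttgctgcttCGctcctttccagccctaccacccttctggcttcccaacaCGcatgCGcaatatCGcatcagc
Magel2: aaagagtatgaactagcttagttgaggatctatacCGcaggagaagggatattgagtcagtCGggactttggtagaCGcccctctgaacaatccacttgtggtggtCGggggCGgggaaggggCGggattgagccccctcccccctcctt
Between Peg3 and Usp29: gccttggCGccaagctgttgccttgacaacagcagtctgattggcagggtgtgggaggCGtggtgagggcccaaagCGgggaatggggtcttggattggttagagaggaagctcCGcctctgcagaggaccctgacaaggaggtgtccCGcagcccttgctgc

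Matches to TGCCGC, the recognition core of the imprint-protecting zinc finger protein ZFP57, were in 2 of the 11 windows (Zim1 and the Snrpn start nearest the gene body), against 11.6% of all windows. Matches to GCCATNTT, a core recognised by YY1, were in 1 window, that of Ube3a, against 6.05%. Both strands were searched. The Ube3a window held 29 CpG sites, more than 87.1% of all windows, and the 4 Snrpn windows held between 2 and 7.

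Each array held 1 intensity per probe set, in arbitrary units, and its median was between 49.1 and 52.7 in heterozygous and between 44.9 and 46.5 in null arrays. Dicer1 itself read 1098 ± 39.2 and 1197 ± 62.2 (SD, n = 3) with its brighter probe set, and since the labels do not give the deleted part, this checks nothing about the genotype. Marker counts stand beside 13.4% of all tested genes called, 6.2% lower and 7.23% higher. Of the 8 ES cell markers, 0 were called, and their summed intensity was between 93611 and 97936 in heterozygous and between 89339 and 95495 in null arrays. Utf1 was lower (-0.27 on the log2 scale, limma adjusted p 0.00332) and Fbxo15 higher (0.28, adjusted p 0.00133), both short of 2-fold. The 7 primitive endoderm markers summed to between 932 and 1431 in heterozygous and between 382 and 424 in null arrays, with 2 called lower. These were Dab2, from a mean of 683 to 155, and Gata6, from 108 to 38.3. Dab2 alone made up most of the heterozygous sums. The 10 fibroblast markers summed to between 539.6 and 605 and to between 635 and 668, with Postn under 32 on every array. The higher sum in null cells came with Dcn, called higher from a mean of 31.0 to 263, while Col1a1 was called lower from 70.0 to 6.62 and the median log2 difference of the 8 tested was -0.65. Col1a1 reached 32 in heterozygous arrays only, which favours a call of lower, and with values under 32 raised to 32 it was 2.05-fold lower. The 8 neuron markers summed to between 10819 and 11559.9 and to between 11121 and 12522, with 1 called in each direction and Snap25 under 32 throughout. Stmn2, not called, made up most of these sums, with means of 8980 and 10296. Map2 was called higher from a mean of 84.1 to 251 and Syp lower from 98.9 to 30.4. Neurod1 went from 1150 to 583 without a call. The 6 trophectoderm markers summed to between 1528 and 2137 and to between 1376 and 2052, with 1 called lower and Elf5 under 32 throughout. Tfap2c, not called, made up most of these sums, with means of 1193.9 and 1233.5. The called gene was Cdx2, from a mean of 72.8 to 11.9. It, too, reached 32 in heterozygous arrays only, and with values under 32 raised to 32 it was 2.09-fold lower. The part of other cell types in the differences described here was not tested.

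Magel2, Ube3a and Peg3 were lower in null cells at limma's adjusted p, and Ndn was slightly higher in the fit over genes. Peg12 did not pass, nor did Snrpn on the 1 dim probe set given to it alone. Outside the member set, 4 bright probe sets assigned to both Snurf and Snrpn were lower at limma's adjusted p, short of 2-fold. The brightest of them differed by -0.85 on the log2 scale, and the others may also bind related transcripts. A probe set entered the test if it reached an intensity of 32 in at least 3 arrays, and 16 of the 25 did, for 6 of the 8 genes. It was called if limma's adjusted p was under 0.05 and the difference at least 2-fold. Of the 16, 3 were called lower (1 each of Magel2, Ube3a and Peg3) and 0 higher, and of all 26545 tested probe sets 12.3% were called, 6.32% lower and 5.97% higher. With 16 probe sets, 3 calls are not set apart from that background. The log2 difference, null minus heterozygous, was below 0 for 11 of the 16 and above 0 for 5, all of Ndn, with a median of -0.57 against -0.06 over all tested probe sets. At the adjusted p alone, 7 were lower and 1 higher, where 40.1% of all tested probe sets passed, 21.2% lower and 18.9% higher. Heterozygous and null arrays had no overlap in 11 of the 16, against 51.3% of all tested probe sets. Of these 11, 2 were of Ndn and higher and the rest were lower, where 27.7% of all had none and were lower. Since 5 of the 16 were of Ndn, 5 of Ube3a and 3 of Peg3, they do not stand for separate genes. With each gene at its brightest probe set, 1 of the 6 tested genes (Magel2) was called lower and 0 higher, against 13.4% called among 12927 genes, 6.2% lower and 7.23% higher. With no limit on size, 3 of the 6 were lower at the adjusted p threshold and 1 higher, against 48.8% of all genes, 24.3% lower and 24.5% higher. No overlap was seen for 4 of the 6, all of them lower, against 57.2% of all genes, where 28.9% of all had none and were lower. These are bulk samples, in which fewer expressing cells and less RNA per cell cannot be told apart.

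**Figure D1:**
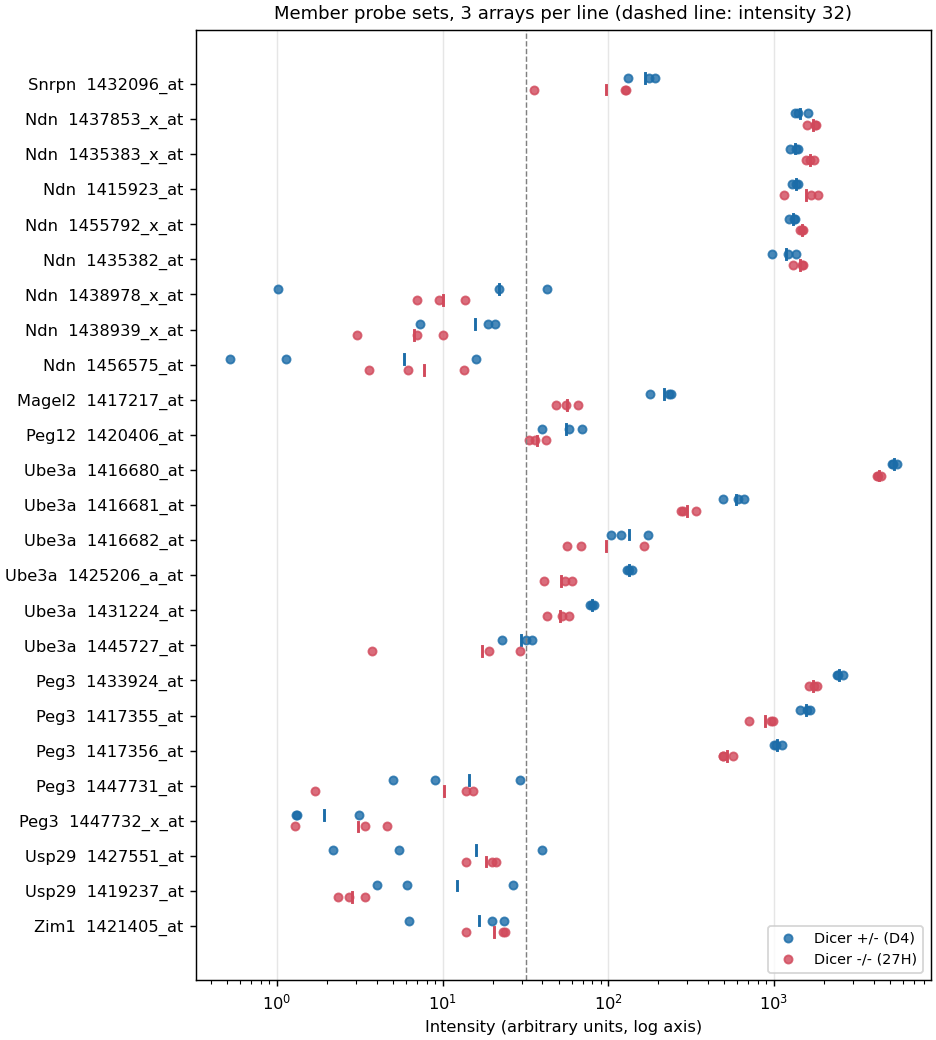
Intensity (arbitrary units, log axis) of the 25 member probe sets on each array, with 3 points per line and a short vertical bar at each mean; the dashed line is the filter at 32. Magel2 and the Peg3 probe sets over 32 have all null points to the left of all heterozygous points, the bright Ndn probe sets lie slightly to the right in null cells, and Usp29 and Zim1 lie mostly under the dashed line.

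Snrpn encodes SmN, a variant of the SmB core protein of spliceosomal ribonucleoproteins. The 1 probe set that the annotation gives to Snrpn alone, 1432096_at, read 132, 192 and 177 in the heterozygous arrays and 35.6, 127 and 126 in the null arrays. The groups did not overlap, but 1 null array, replicate 1, was far below the other 2. The log2 difference was -0.99 ± 0.43 (SE; limma adjusted p 0.0956), so it was not called. Without null replicate 1 the difference was -0.38. In the fit over genes Snrpn was called without null replicate 2 (-1.30) and without null replicate 3 (-1.29).

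Snurf, an upstream reading frame, and Snrpn are read from the same transcript, and 6 further probe sets are assigned to both, which kept them out of the member set. Over the probe sets of this pair that passed the filter, 4 were bright and read lower in null cells. The brightest, 1415895_at, read 13755, 12829 and 12735 in heterozygous and 7351, 8267 and 6364 in null arrays, so that each null array lay far below every heterozygous one. Its log2 difference was -0.85 ± 0.09 (SE; limma adjusted p 3.9e-05). The probe sets 1415896_x_at, 1421063_s_at and 1435716_x_at differed by -0.80, -0.61 and -0.59, with adjusted p values of 0.000329, 0.000362 and 4.48e-05. None of these 4 reached 2-fold. All but 1415895_at end in _x_at or _s_at, which marks probe sets that can also bind related transcripts, and all 4 read the same transcript. The dim 1441905_x_at read 285 ± 18.8 and 242 ± 2.57 (SD, n = 3; adjusted p 0.175), and 1460075_x_at stayed under 32 on every array.

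Ndn encodes necdin, a growth-suppressing protein of the MAGE family that is best known from neurons. Its 5 tested probe sets had log2 differences of 0.18 to 0.30, and 1 of them passed the adjusted p. The brightest, 1437853_x_at, read 1601, 1386 and 1329 in heterozygous and 1791, 1775 and 1575 in null arrays, and the groups overlapped. Its log2 difference was 0.25, with a 95% interval of 0.05 to 0.46 and a limma adjusted p of 0.0535. The probe set 1435383_x_at read 1247, 1395 and 1353 against 1548, 1642 and 1739, without overlap, a fold of 1.23 (adjusted p 0.0142). The other 3, 1415923_at, 1455792_x_at and 1435382_at, had folds of 1.13, 1.14 and 1.22, for which limma gave adjusted p values of 0.37, 0.0795 and 0.084. Probe sets ending in _x_at can also bind related transcripts, and the only one that passed has that ending. With such probe sets left out, the fit over genes gave Ndn a difference of 0.18 (adjusted p 0.327), against 0.25 (adjusted p 0.0368) with them. The remaining Ndn probe sets, 1438978_x_at, 1438939_x_at and 1456575_at, did not pass the filter and read at most 42.7.

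Magel2 encodes a MAGE protein that joins the ubiquitin ligase TRIM27 in protein sorting from endosomes, and it lies next to Ndn. Its 1 probe set, 1417217_at, read 179, 237 and 233 in heterozygous and 65.3, 48.1 and 55.5 in null arrays. Every null array was less than the lowest heterozygous array by a wide margin. Magel2 fell 3.85-fold, with a log2 difference of -1.94 ± 0.22 (SE) and a limma adjusted p of 7.14e-05, and it was called under every alternative tried, at log2 differences from -2.08 to -1.49.

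The differences of Magel2 and Ndn were compared within arrays, using 1417217_at and 1437853_x_at. The log2 intensity of Magel2 minus that of Ndn was -3.16, -2.54 and -2.51 in heterozygous and -4.78, -5.21 and -4.83 in null arrays, so the gap between the neighbours widened by 2.20 (means -2.74 ± 0.37 and -4.94 ± 0.23; SD, n = 3). The arrays did not overlap, and the two-sided exact permutation p was 0.1, the smallest that 3 arrays against 3 allow. This was 1 of 3 such pairs, chosen after their values were seen, so neither the lack of overlap nor that p adds evidence to the fit. Each pair had an adjusted p of 0.1 by exact permutation.

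Peg12, also called Frat3, encodes a protein of the FRAT family, which binds the kinase GSK3 and takes part in Wnt signalling. It was dim. Its probe set, 1420406_at, read 57.7, 69.2 and 39.9 in heterozygous and 33.2, 42.2 and 36.1 in null arrays, with overlap. The log2 difference was -0.55, with a 95% interval of -1.45 to 0.35 and a limma adjusted p of 0.314, so neither a fall by more than 2-fold nor a small rise could be told from no difference at this precision. Mkrn3, a paternally expressed gene for a RING finger protein that lies between Magel2 and Peg12, read between 116 and 212 in heterozygous and between 132 and 209 in null arrays, with overlap and a limma adjusted p of 0.952 over genes.

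Ube3a encodes the E6-AP ubiquitin ligase. All 5 of its tested probe sets had differences below 0, of widely differing sizes, and 3 passed the adjusted p. The brightest, 1416680_at, read 5221, 5152 and 5538 in heterozygous and 4208, 4247 and 4393 in null arrays, without overlap. Its fold of 0.808 (log2 difference -0.31 ± 0.06, SE; limma adjusted p 0.00277) was far short of 2-fold. When each array was centred on its median, the difference was -0.15 and its adjusted p 0.112.

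The dimmer Ube3a probe sets showed larger differences. The called one, 1425206_a_at, read 134, 129 and 138 in heterozygous and 55.1, 40.9 and 59.9 in null arrays, 2.61-fold lower (limma adjusted p 0.00152). Next to it in size, 1416681_at read 495, 604 and 659 against 281, 274 and 337, a log2 difference of -0.98 (adjusted p 0.000303), just short of 2-fold. The groups did not overlap for either. The remaining 1431224_at and 1416682_at differed by -0.66 and -0.59, with adjusted p values of 0.1 and 0.252, and the second had 1 null array, replicate 3, at 165 among heterozygous values of 104 to 175. Without that array 1416682_at was called (-1.06), as was 1416681_at without it (-1.07) or without heterozygous replicate 1 (-1.09). With 32 added to every value before log2, 1425206_a_at stood at -0.99, short of the threshold. The sixth probe set, 1445727_at, did not pass the filter. Within arrays, the log2 signal of 1425206_a_at minus that of 1416680_at went from -5.31 ± 0.02 to -6.38 ± 0.27 (SD, n = 3), with an exact permutation p of 0.1, the smallest possible. This pair was chosen after its values were seen, so that p adds no evidence to the fit. The array files do not give probe positions, so whether these probe sets read different transcript ends or isoforms was not analysed here.

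Snhg14, the paternal host RNA of the domain's small nucleolar RNAs, whose far end overlaps Ube3a, fell on all 3 of its probe sets. The probe set 1436964_at read 1080.4, 913 and 1252 in heterozygous and 329, 204 and 441 in null arrays, 3.47-fold lower (limma adjusted p 0.000172). With 1455087_at the values were 808, 703 and 863 against 192, 145 and 262, 4.06-fold lower (adjusted p 2.03e-05). The groups were far apart with both. The dim 1445296_at was also called, at a limma adjusted p of 0.0427, with null arrays of 17.4 to 20.7, all under 32. It passed the filter through its heterozygous arrays alone, which favours a call of lower, so it adds little to the brighter probe sets. Snhg14 and Magel2 were the only genes called among the 7 tested genes from Ube3a to Peg12, Ube3a being represented there by its brightest probe set.

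**Figure D2:**
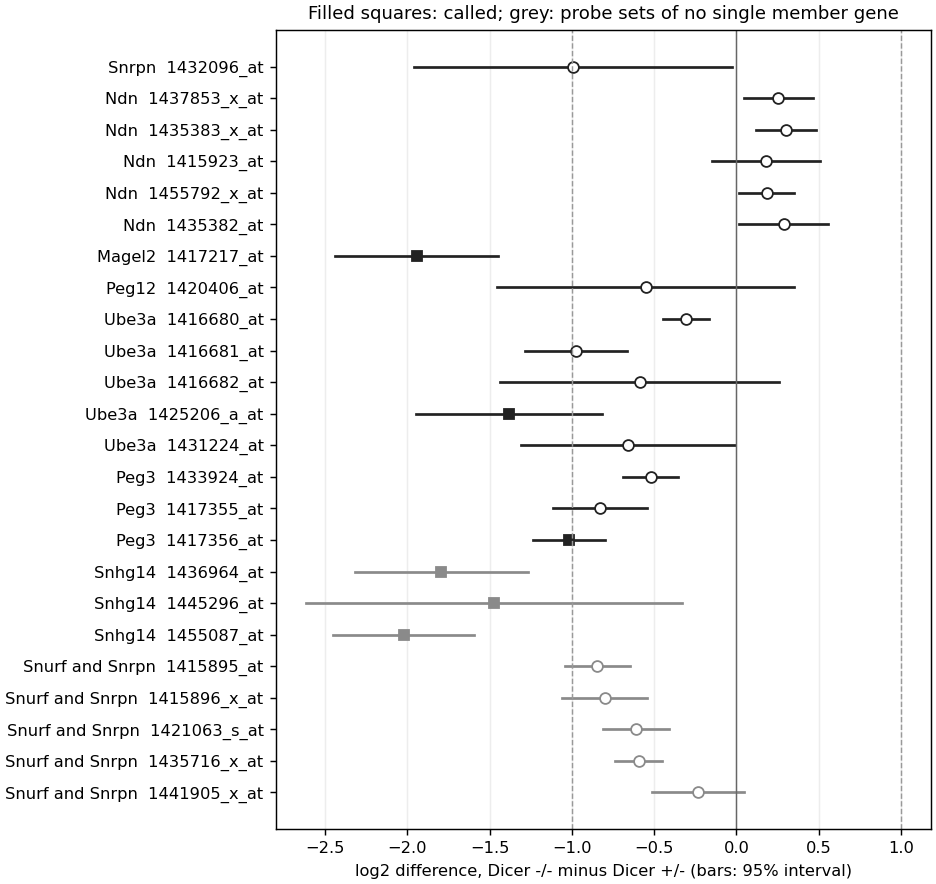
Log2 difference (null minus heterozygous) with its 95% interval for the 16 tested member probe sets (black) and for the tested probe sets of Snhg14 and of the pair Snurf and Snrpn (grey); filled squares are called and dashed lines mark 2-fold. The Ndn probe sets sit just above 0, from 0.18 to 0.30, while Magel2 is at -1.94 and the Ube3a probe sets spread from -1.38 to -0.31.

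Peg3 encodes a large zinc finger protein linked to growth and to maternal behaviour. Its 3 tested probe sets were lower in null cells and none had overlapping arrays. The brightest, 1433924_at, read 2429.9, 2410.0 and 2596 in heterozygous and 1749, 1622 and 1817 in null arrays, a fold of 0.697 (log2 difference -0.52 ± 0.08, SE; limma adjusted p 0.00034). The probe set 1417355_at read 1656, 1439.7 and 1578 against 963, 986 and 705, a log2 difference of -0.83 (adjusted p 0.000489). Both showed a clear gap between the lines without reaching 2-fold.

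The third, 1417356_at, read 1113, 993 and 1029 in heterozygous and 564, 495 and 494 in null arrays, 2.02-fold lower (limma adjusted p 2.27e-05). It stood at the threshold of size and was the only one of the 3 called. It was not called without heterozygous replicate 1 (-0.97), null replicate 2 (-0.98) or null replicate 3 (-0.98), with 32 added to every value (-0.97), or with arrays centred on their medians (-0.86). Within arrays, the log2 signal of 1417356_at minus that of 1433924_at went from -1.25 ± 0.11 to -1.74 ± 0.13 (SD, n = 3), with an exact permutation p of 0.1, the smallest possible. This pair, too, was chosen on its values, so that p adds no evidence to the fit. The dim probe sets 1447731_at and 1447732_x_at read at most 29.2 on every array.

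Usp29, which encodes a ubiquitin-specific protease, and Zim1, which encodes a zinc finger protein, did not pass the filter and were not tested. For Usp29, 1427551_at read 39.9, 2.17 and 5.48 in heterozygous and 21.1, 19.7 and 13.8 in null arrays, with overlap. The second, 1419237_at, read 6.10, 4.03 and 26.5 against 2.34, 3.40 and 2.73. Zim1 lay between 6.27 and 23.5 in heterozygous and between 13.9 and 23.9 in null arrays. No detection calls were used, so values this low may be background. Of the 9 member probe sets under the filter, 3 of 54 values reached 32. Zim2 and Zim3, imprinted zinc finger genes of the same domain, also failed the filter.

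The surroundings of the domains on chromosome 7 were described next, taking the 10 nearest tested genes on each side in the order of the RefSeq gene table, 1 probe set per gene. Of 12927 genes tested, 13.4% were called. Of the 1031 tested on chromosome 7, 43 were called higher and 87 lower, with a median log2 difference of -0.11 against -0.01 for all genes. Of the 20 genes flanking the Prader-Willi domain, 0 were called higher and 2 lower, with a median of -0.30, and both lie on the side of Peg12.

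The first of these, Chrna7, which encodes the alpha7 nicotinic acetylcholine receptor and is the first tested gene beyond Peg12, read 297 ± 15.7 and 103 ± 8.86 (SD, n = 3), 2.90-fold lower (limma adjusted p 1.32e-05). The other, the cation channel gene Trpm1, read 175 ± 34.3 and 13.8 ± 10.7, a log2 difference of -3.95 (adjusted p 0.00015). Its null arrays, at 5.53 to 25.9, were all under 32, so Trpm1 passed the filter through its heterozygous arrays alone, which favours a call of lower. With values under 32 raised to 32 it was 5.40-fold lower. On the side of Ube3a the ATPase gene Atp10a, whose imprinting is disputed, read 207 ± 15.1 and 158 ± 43.5 (adjusted p 0.128).

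Of the 20 genes flanking the Peg3 domain, many of which encode zinc finger proteins, 1 was called higher and 1 lower. Over all genes 7.23% were called higher and 6.2% lower. The median of the 20 was -0.14. Zfp78 read 47.6, 40.9 and 53.8 in heterozygous and 112, 76.6 and 114 in null arrays, a log2 difference of 1.07, and Aurkc, a kinase of meiotic cells, read 204 ± 16.6 and 102 ± 15.9 (SD, n = 3), which put it right at the 2-fold threshold. Zfp78 was short of a call without heterozygous replicate 2 (0.97), null replicate 1 (0.98) or null replicate 3 (0.97), and Aurkc without heterozygous replicate 3 (-0.94), null replicate 2 (-0.98) or null replicate 3 (-0.90). With 32 added to every value both were short of it (0.73 and -0.81), as was Aurkc with arrays centred on their medians (-0.85) or quantile normalized (-0.97). At the adjusted p alone, 8 of the 20 were lower and 4 higher, against 24.3% lower and 24.5% higher over all genes. Peg3 itself, at -0.52, lay between Aurkc and Zfp78.

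**Figure D3:**
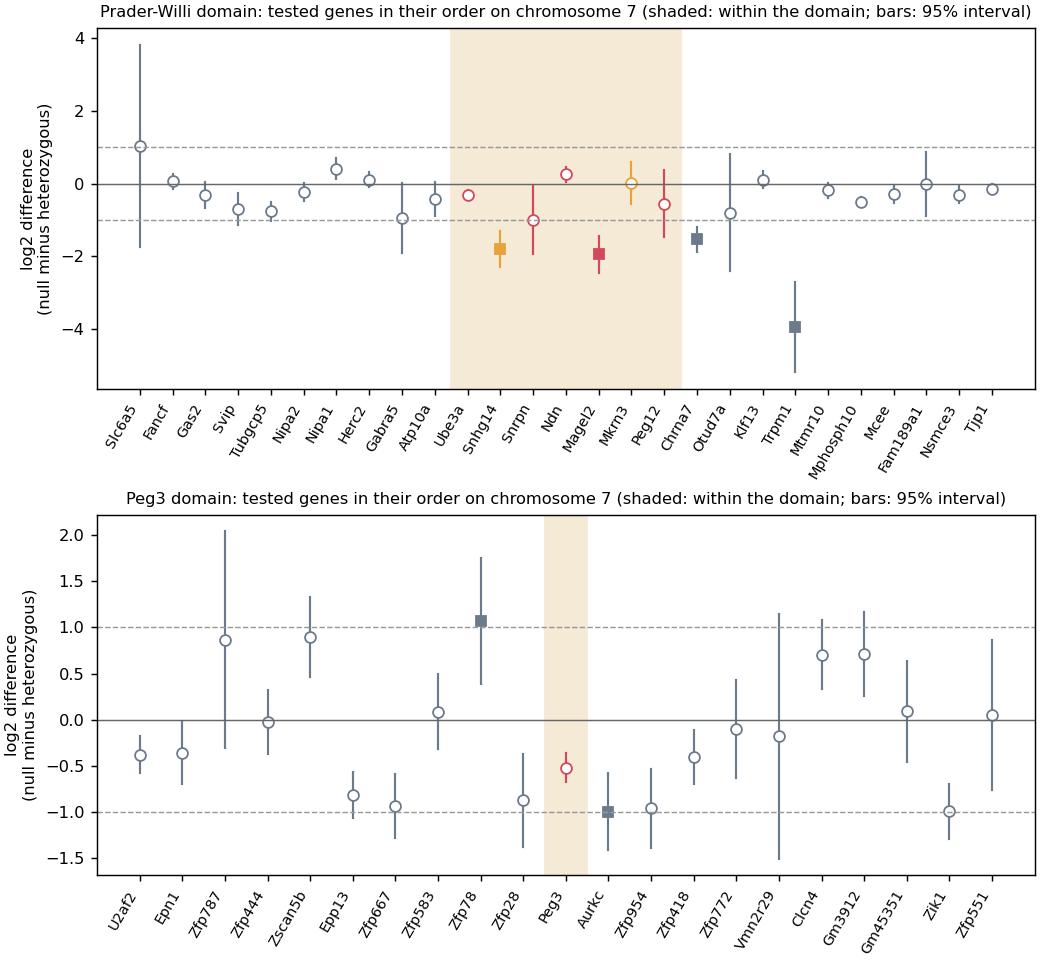
Log2 difference (null minus heterozygous, with 95% interval) of tested genes in their order along chromosome 7, with the domain shaded; red marks members, orange other genes inside the domain and filled squares called genes. In the upper panel Snhg14 (-1.79), Magel2 (-1.94), Chrna7 and Trpm1 are called lower with uncalled genes between them; in the lower panel Peg3 (-0.52) lies among genes of both signs.

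Among 39 tested imprinted genes of other domains, 11 were called lower and 3 higher, 35.9% called in all and 28.2% lower. Over all genes 13.4% were called, 6.2% lower and 7.23% higher. The median log2 difference of the 39 was -0.38, against -0.54 for the 6 tested members and -0.01 for all genes. The largest falls were those of Sfmbt2 (a Polycomb protein, 6.39-fold), Nnat (neuronatin, 5.93-fold), Rian (a non-coding RNA, 5.11-fold) and Igf2 (a growth factor, 4.43-fold). Each had a limma adjusted p below that of Magel2 in the same fit over genes, where Magel2 stood at 3.51e-05. These sizes are for the brightest probe set of each gene. As a mean over their probe sets Sfmbt2 and Rian differed by -1.86 and -1.61 on the log2 scale, against -2.68 and -2.35 at the brightest.

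The 19 tested factors that set or keep imprints had a median log2 difference of -0.15. Of the 19, 0 were called higher and 3 lower, against 7.23% and 6.2% of all genes. These were the de novo DNA methyltransferase Dnmt3a (3.31-fold lower), its cofactor Dnmt3l (2.17-fold) and Dppa3, which shields maternal methylation in the zygote (2.89-fold). As a mean over its probe sets Dnmt3a differed by -0.75, and Dnmt3l by -0.96 with arrays centred on their medians, so both calls were lost there. Zfp57 read 692 ± 18.6 and 639 ± 56.1 (SD, n = 3; limma adjusted p 0.337), and its sign turned from -0.12 to 0.035 with arrays centred on their medians.

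The Sm ring and the SMN complex, which assembles it, had 0 calls among 12 tested genes, where 13.4% of all genes were called. Their median was -0.21. At the adjusted p alone 7 of the 12 were lower, against 24.3% of all genes. Snrpb, which encodes the SmB relative of SmN, read 11222 ± 370 and 9798 ± 882 (SD, n = 3), which differ by -0.20 on the log2 scale (limma adjusted p 0.0401). Centring each array on its median gave Snrpb -0.045 (adjusted p 0.683). The Sm protein gene Snrpd3 differed by -0.66 and Smn1, the gene for the SMN protein, by -0.37. As a mean over its probe sets Snrpd3 differed by -0.10.

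Of 6 tested MAGE relatives of necdin and MAGEL2, 0 were called, where 13.4% of all genes were. The median of the 6 was 0.16. Maged1, an adaptor protein of this family, read 1811 ± 223 and 2513 ± 177 (SD, n = 3), which differ by 0.48 on the log2 scale (limma adjusted p 0.00168), while Mageh1 differed by -0.83. The MAGEL2 ubiquitin ligase with the retromer and the WASH complex had 0 calls among 10 tested genes, beside the same 13.4%, and a median of -0.04. The deubiquitinase Usp7 and the retromer subunit Vps29 differed by -0.16 and -0.24, and by -0.0093 and -0.084 once each array was centred on its median (limma adjusted p 0.926 and 0.443). Without probe sets that can bind related transcripts they differed by -0.35 and -0.68.

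Of 4 tested partners and reported substrates of UBE3A, beside a share of 13.4% over all genes, 1 was called. This was the neuronal activity gene Arc, 2.53-fold lower, from 219.8 ± 47.2 to 87.4 ± 21.7 (SD, n = 3; limma adjusted p 0.000665). The Polycomb ligase gene Ring1 differed by 0.81. Of 11 tested genes of the GSK3 complex and the FRAT family, beside 6.2% of all genes, 1 was called lower. It was Axin2, a scaffold of the complex and a target of Wnt signalling, from 306 ± 43.6 to 89.4 ± 30.3. Dvl1, which relays the Wnt signal, differed by -0.95, and it was called without null replicate 1 or 2. The relatives of Peg12 were not called. Frat2 read 130.2 ± 7.61 and 109.8 ± 25.2, and Frat1 read 40.3 ± 28.9 and 31.5 ± 23.2, and their adjusted p values from limma were 0.358 and 0.696. Frat1 turned sign without heterozygous replicate 1 (0.024) and without null replicate 2 (0.53).

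Beside 13.4% of all genes, 0 were called of 3 tested partners of PEG3 in cell death signalling. They differed in both directions: the signalling adaptor gene Traf2 by -0.91, the ubiquitin ligase gene Siah1a by -0.86 and the autophagy gene Becn1 by 0.57, with limma adjusted p values of 0.000554, 0.00184 and 6.57e-05. As a mean over its probe sets Siah1a differed by -0.16 (adjusted p 0.275). Without heterozygous replicate 3, 2 of the 3 were called, and without null replicate 2, 1 was.

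**Figure D4:**
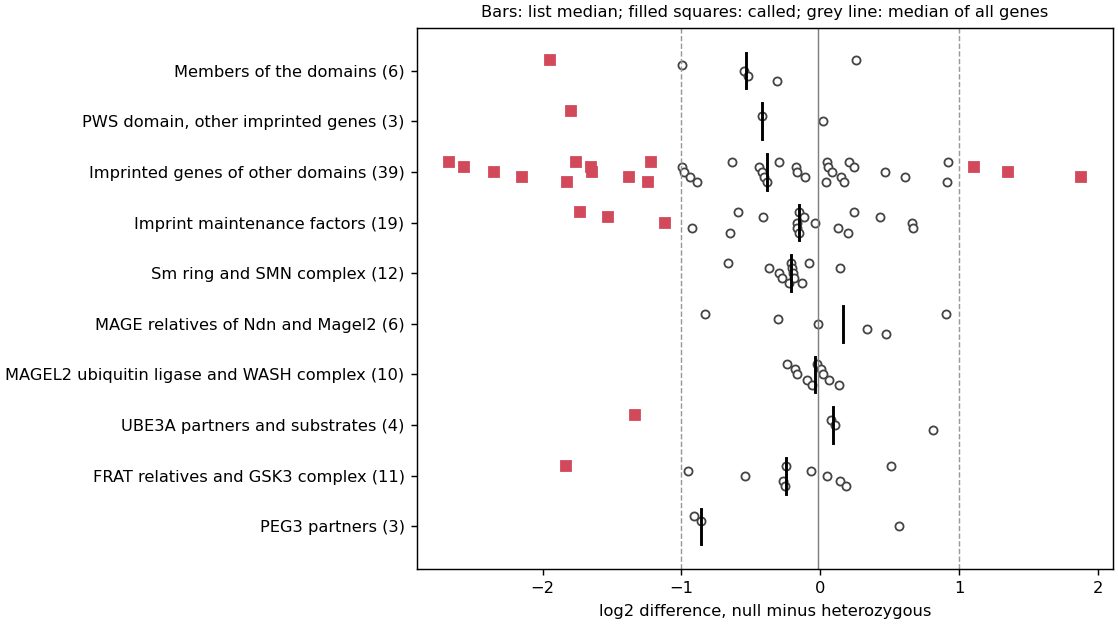
Log2 differences (null minus heterozygous) of the tested genes of each list, with the number tested in brackets, the list median as a bar and called genes as filled squares; the grey line is the median of all genes. Of the 39 imprinted genes of other domains 11 are filled squares to the left of 0 and 3 to the right, while the Sm ring, MAGE, MAGEL2 complex and PEG3 partner rows hold none.

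The genes most like the brightest member of each domain were sought over the 6 arrays, by the Euclidean distance between log2 profiles centred on their own means. For Ube3a, with its brightest probe set, the nearest were Ankrd17 (an ankyrin repeat protein; 0.04), Cks2 (a subunit of cyclin-dependent kinases; 0.04) and Riox1 (a histone demethylase; 0.05). For Peg3 they were Aen, an apoptosis-enhancing nuclease also on chromosome 7 (0.03), Cnppd1 (0.04) and Pkp2 (plakophilin; 0.07). The list gives likeness of values in 2 lines only.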

How the data were processed

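The deposited values are intensities of Affymetrix probe sets on a linear scale, read from biotin-labelled cRNA made from total RNA. GCRMA is the tool named in the submitters' processing notes, and the values are not on its log2 scale; each array's mean after trimming 2% at each end was 500. Background and scaling steps by the authors are not given in the sources used here, and global scaling leaves differences in distribution shape between arrays in place.

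Intensities were turned into log2 and compared by line, the only term of the model, with lmFit and trended eBayes of limma 3.58.1 under R 4.3.3, two-sided, over all 26545 probe sets outside the 64 controls that reached 32 in 3 arrays, and again over 12927 genes at their brightest probe set with 1 gene symbol. P-values were adjusted by Benjamini-Hochberg over each whole fit. Intervals are at 95%. The genes named are the members, 6 genes fixed whatever their values, and by size up to 4 called genes, or 2 at the adjusted p, of each list, plus called flanking genes and the nearest profiles; others named are examples. Members and lists were chosen with earlier results of these data known. Some listed genes are not analysed here. Same-numbered arrays of the lines deviated with correlations of 0.03, 0.03 and 0.08, so the replicate numbers were not taken to pair them. The number of arrays limits the precision.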

Additional observations from a re-analysis of the deposited data

How the results depend on the processing

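Of 1037 values of single genes and probe sets under the alternatives, 972 kept their direction and side of the threshold, 18 lost a call, 44 gained one (settings with a smaller size threshold included) and 3 turned sign (Frat1, at -1.34 to 0.53 without 1 array, in 2 of these, and Zfp57, at 0.035 with centring). Centring arrays on their medians moved the median of all genes by 0.15 and the calls from 934 higher and 802 lower to 1263 and 575. With the replicate number as a block (replicate block), 3 member probe sets and 1 member gene were called, as without it. Called member probe sets numbered 1 on the scale of log2 of the value plus 32, 5 at 1.5-fold, 8 at the adjusted p alone and 2 to 5 without 1 array; called member genes numbered 4 at the adjusted p alone and 1 to 2 without 1 array, the second being Snrpn without null replicate 2 or 3. Over the whole table, 6570 probe sets and 3565 genes were called at 1.5-fold, and 10633 and 6305 at the adjusted p alone, against 3262 and 1736. Of the genes flanking the Peg3 domain, 1 was called with a log2 filter of 7. Low intensities, as of Usp29 and Zim1, limit what can be said of those genes.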
